A study of Mesocricetus auratus with 8 samples.

Results

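The 10 genes examined here are induced by signalling through the kinase ERK, 8 of them encode its inhibitors and 2 encode transcription factors, and they were measured by RNA sequencing in cultured satellite cells (SCs) of Syrian hamsters before and after cold exposure. They were chosen by name, as the rows of the deposited table with the symbols Dusp1, Dusp4, Dusp5, Dusp6, Spry2, Spry4, Spred1, Spred2, Etv4 and Etv5. All 10 were present with values in every library, out of 17590 genes with values in the table, and all 10 passed the filter on low counts. No sequence or coordinate is given for them, since the genome build behind the counts is not stated in the sources used here.

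SCs, the stem cells of skeletal muscle, had been isolated from hindlimb muscles of sexually mature male wild-type hamsters by preplating. They were grown on Matrigel in growth medium (GM) with 30% serum, 1% chick embryo extract and 10 ng/mL basic fibroblast growth factor. The 4 control libraries were made from cells kept at 37°C, and the 4 cold libraries from cells kept at 37°C for 48 h, in GM with HEPES at 37°C for 24 h, and then at 4°C for 24 h. Libraries are numbered 1 to 4 in each group. In the scheme of the study, controls were taken after the HEPES step and before the cold, although the control labels do not mention that step. Cold exposure and 24 h of further culture cannot be told apart, nor, if the controls lacked it, can the HEPES step. By title every control belongs to day 3, but in the treatment label control replicate 1 has 3 days at 37°C, replicate 2 has 4, replicate 3 has 5 and replicate 4 has 6. Neither source says whether a number marks an animal, a culture or a day, and p-values therefore measure the spread between these libraries.

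ERK is the last kinase of a relay that runs from growth factor receptors through Ras, Raf and MEK. Active ERK induces its own brakes. Dual-specificity phosphatases (DUSPs) remove phosphate from MAP kinases, Sprouty and SPRED proteins act upstream at the level of Ras and Raf, and the ETS factors ETV4 and ETV5 are transcription factors induced by FGF signalling. The messages of several of these genes are short-lived, and their levels are widely read as a record of recent ERK output. In SCs, FGF signalling through ERK is known for promoting proliferation and for holding back differentiation.

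The cells carried myogenic transcripts throughout. Myod1 ranged from 424 to 693 TPM (the transcript share of a library, scaled for transcript length), Des from 724 to 924 TPM and Pax7 from 10.8 to 16.1 TPM. Transcripts shared with fibroblasts and smooth muscle were also abundant. The summed level of the 9 fibroblast markers with values ranged from 1204 to 1747 TPM, although Pi16 was at 0 in every library. Ptprc, which defines leukocytes, and Adgre1, which defines macrophages, each reached at most 0.03 TPM, while the whole leukocyte and macrophage list summed to between 40.9 and 105 TPM, with Cd68 at 23.3 to 52.0 TPM and Cd14 at 14.9 to 49.0 TPM. The 8 endothelial markers summed to at most 4.41 TPM. Libraries held between 16530747 and 18533801 counts. Replicates 1 and 2 lay apart from replicates 3 and 4 on the first principal component of all genes (53.4% of the variance), and cold from control libraries on the second (18.0%). Since both groups carry the same replicate numbers, each gene was fitted without and with the replicate number as a block.

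The ERK feedback genes lay close to their control levels in the cold libraries. In edgeR's quasi-likelihood test without the block, 0 of the 10 genes had an adjusted p under 0.05, and 0 had an unadjusted p under 0.05. Over all 12506 genes tested, these shares were 0.072% and 6.7%. With the block, 2 of the 10, Spry2 and Spred2, had an unadjusted p under 0.05, where 18.2% of all genes did. After adjustment in the fit with the block, 1 of the 10, Spry2, was higher in the cold and 0 were lower, where 5.33% of all genes were called, 1.26% higher and 4.07% lower. Among genes with a mean count at least as high as that of the least counted member, 6.4% were called. No member reached a log2 fold change of 1, the threshold of the study, in either fit, where 0.04% and 0.848% of all genes passed it together with the adjusted p. The median log2 fold change of the 10 genes was 0.05 with the block, beside 0.0075 over all genes tested, and 0.0086 without replicate 2. With the block, the 95% confidence intervals of all 10 fold changes lay between 0.833 and 1.30. Without the block they were wider, between 0.551 and 1.99, and Dusp6 set both ends.

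**Figure D1:**
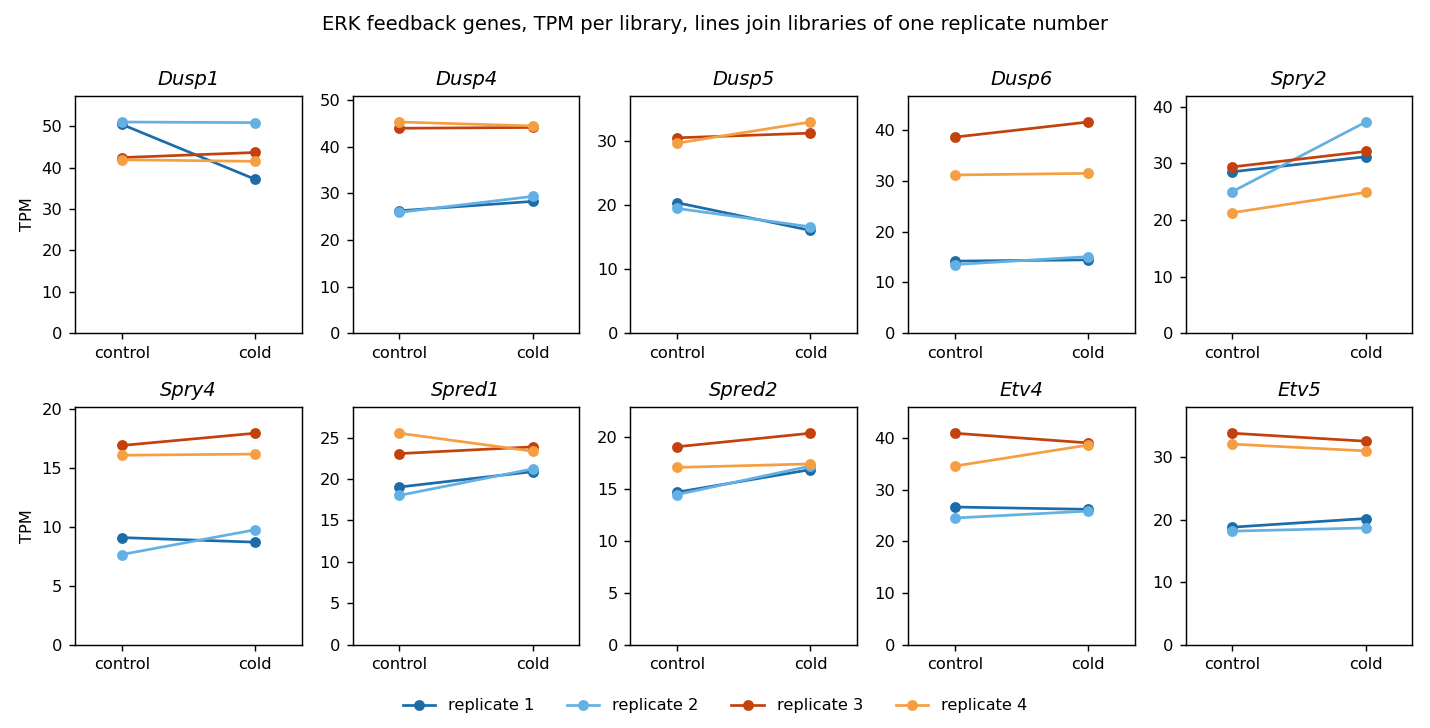
TPM (vertical axis, from 0) of each ERK feedback gene in the control and cold libraries, with a line joining libraries of one replicate number. Lines run nearly level in most panels, while replicates 3 and 4 lie above replicates 1 and 2 in Dusp4, Dusp5, Dusp6, Spry4, Spred1, Etv4 and Etv5.

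Among the phosphatases, DUSP6 is a cytoplasmic enzyme with high selectivity for ERK, and its gene is a standard readout of FGF signalling. Dusp6 (NCBI Gene 101840166) was at 14.2, 13.5, 38.6 and 31.1 TPM in control replicates 1 to 4 and at 14.4, 15.1, 41.5 and 31.4 TPM in cold replicates 1 to 4. Replicates 3 and 4 were high and replicates 1 and 2 low in both groups, and the groups overlapped. Group means were 24.3 ± 12.5 and 25.6 ± 13.2 TPM (SD, n = 4 each; exact two-sided permutation test, p = 0.686). The smallest p that 4 libraries against 4 allow in this exact test is 0.0286. With the block, its fold change was 1.04, with a 95% confidence interval of 0.971 to 1.12.

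DUSP4 and DUSP5 are nuclear phosphatases, and DUSP5 is selective for ERK. Dusp4 (101833656) was at 26.3, 25.9, 44.0 and 45.3 TPM in the controls and at 28.3, 29.4, 44.1 and 44.5 TPM in the cold libraries. It followed the same split by number, and its fold change with the block was 1.03 (95% confidence interval 0.971 to 1.10). Dusp5 (101838620) was at 20.4, 19.5, 30.5 and 29.7 TPM in the controls and at 16.1, 16.6, 31.2 and 33.0 TPM in the cold libraries. It was lower in cold replicates 1 and 2 than in their controls and higher in cold replicates 3 and 4. On the log2 scale of CPM, counts scaled to library size, the differences of cold minus control were −0.40, −0.28, 0.03 and 0.19 for pairs 1 to 4. Over all 4 pairs the fold change with the block was 0.941 (95% confidence interval 0.843 to 1.05). In a fit to replicates 1 and 2 alone, Dusp5 fell by 0.35 on the log2 scale (SE 0.07, edgeR adjusted p = 0.00416), where 6.85% of genes were lower. In a fit to replicates 3 and 4 alone, the difference was 0.11 (SE 0.07, edgeR adjusted p = 0.997), where 0.397% of genes were called, 0.381% lower and 0.0159% higher. This split of the libraries was chosen with earlier results of these data known, so the p-values restate the pair differences and are no independent support. The difference between these fits was not tested.

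DUSP1 acts on p38 and JNK as well as on ERK, and its gene responds to many stresses. Dusp1 (101831197) had the highest mean level of the 10 genes, with 50.5, 51.0, 42.4 and 41.9 TPM in the controls and 37.2, 50.9, 43.7 and 41.5 TPM in the cold libraries. Cold replicate 1 held the lowest value, and the groups overlapped. The differences in log2 CPM were −0.49 in pair 1 and between −0.05 and 0.04 in the other pairs. Without replicate 1, its log2 fold change with the block was −0.0047, against −0.12 with all libraries (adjusted p = 0.368 with edgeR).

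The Sprouty proteins bind adaptors and Raf and dampen the path from receptor to ERK. Spry2 (101838213) was at 28.5, 25.0, 29.4 and 21.3 TPM in the controls and at 31.2, 37.3, 32.1 and 24.9 TPM in the cold libraries. It was higher in the cold in 4 of 4 pairs, but the groups overlapped, with cold replicate 4 below 3 of the controls. Means were 26.1 ± 3.69 and 31.4 ± 5.10 TPM (SD, n = 4 each; exact two-sided permutation test, p = 0.171). With the block, Spry2 rose by 0.25 on the log2 scale (SE 0.06, edgeR adjusted p = 0.0279), or 1.19-fold with a 95% confidence interval of 1.08 to 1.30. Pair 2 differed most, by 0.52 in log2 CPM, and the other pairs by 0.08, 0.12 and 0.26. This call was lost without replicate 2 (log2 fold change 0.14, adjusted p = 0.376 with edgeR) and with DESeq2 and the block (0.24, adjusted p = 0.144). In replicates 1 and 2 alone, which include pair 2, the log2 fold change was 0.29 (adjusted p = 0.0235 with edgeR), where 4.73% of genes were higher. In replicates 3 and 4 alone it was 0.18 (adjusted p = 0.997 with edgeR), where 0.0159% of genes were higher. As for Dusp5, these p-values restate the pair differences and are no independent support. The difference between the fits was not tested.

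Spry4 (101824607) was the least abundant of the 10 genes, with 9.08, 7.64, 16.9 and 16.1 TPM in the controls and 8.69, 9.74, 17.9 and 16.2 TPM in the cold libraries. Its levels parted by replicate number as those of Dusp6 did. With the block its fold change was 1.06 (95% confidence interval 0.967 to 1.15). Its pair differences in log2 CPM ran from −0.12 in pair 1 to 0.31 in pair 2.

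SPRED1 and SPRED2 recruit the Ras inhibitor neurofibromin to the membrane. Spred1 (101827544) was at 19.0, 18.0, 23.1 and 25.5 TPM in the controls and at 20.9, 21.2, 23.9 and 23.4 TPM in the cold libraries. The fold change with the block was 1.04 (95% confidence interval 0.969 to 1.11). Spred2 (101836702) was at 14.7, 14.4, 19.0 and 17.0 TPM in the controls and at 16.8, 17.2, 20.3 and 17.4 TPM in the cold libraries. It was higher in TPM in 4 of 4 pairs by small amounts, and its fold change with the block was 1.08 (95% confidence interval 1.00 to 1.16, adjusted p = 0.245 with edgeR). In TPM, 3 of the 10 genes, Spry2, Spred2 and Dusp6, were higher in the cold in 4 of 4 pairs, where 12.8% of all genes were. None of the 10 was lower in 4 of 4 pairs, where 10.5% were. In log2 CPM the genes higher in 4 of 4 pairs were Spry2, Spred2 and Dusp4, where 12.9% of all genes were higher and 12.8% lower, and Dusp6 was lower in pair 1.

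Etv4 (101833238) was at 26.6, 24.5, 40.9 and 34.6 TPM in the controls and at 26.2, 25.8, 39.1 and 38.6 TPM in the cold libraries. Etv5 (101826616) was at 18.8, 18.2, 33.9 and 32.1 TPM in the controls and at 20.2, 18.7, 32.6 and 31.0 TPM in the cold libraries. With the block, the fold changes were 1.01 for Etv4 (95% confidence interval 0.936 to 1.10) and 0.993 for Etv5 (95% confidence interval 0.931 to 1.06). The pair differences of Etv5 had a standard deviation of 0.04 in log2 CPM, the smallest among the members.

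**Figure D2:**
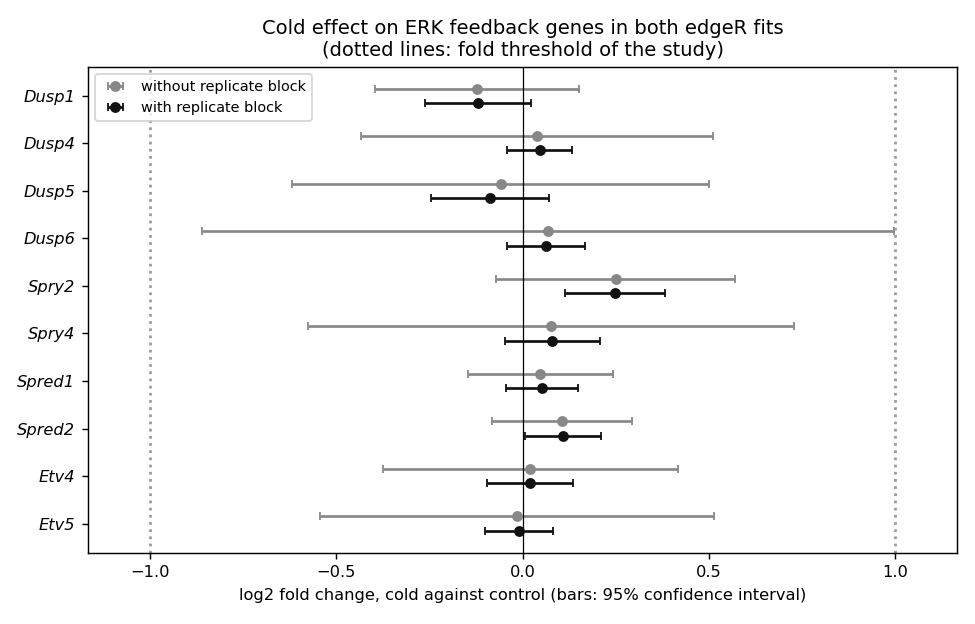
Log2 fold change of cold against control (horizontal axis) for each ERK feedback gene, with 95% confidence intervals as bars, from the edgeR fits without (grey) and with (black) the replicate block. Dotted lines mark log2 fold changes of −1 and 1, and with the block only the intervals of Spry2 and, narrowly, Spred2 lie above 0.

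None of the 10 genes had control and cold TPM values that did not overlap, where 4.68% of all genes did. Each member had between 409 and 2573 counts in a library, and no member had fractional counts. How reads matching several gene copies were treated is not given in the sources used here. Of the 40 pair differences of the members, 28 lay within the 95% interval of counting error, 9 were higher and 3 were lower. Over the 3538 genes with a mean count within the range of the members, 17.5% of pair differences were higher and 12.7% lower. The lower ones among the members were Dusp1 in pair 1 and Dusp5 in pairs 1 and 2. These intervals cover counting error only.

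The feedback genes also differed between replicate numbers. In the fit with the block, an F test of the replicate number, added after the values were seen, gave an adjusted p under 0.05 for 10 of 10 members, where 35.4% of all genes passed. Its p-values restate differences already seen and are no independent support. Among the 5471 genes with a mean count at least as high as that of the least counted member, 40.1% passed. The highest and lowest means of a replicate number differed by a median of 0.63 in log2 CPM over the 10 members, beside 0.25 over all genes. Dusp6 had the widest gap, 2.67-fold (adjusted p = 2.36e-11 with edgeR). Next came Spry4 at 1.92-fold, Etv5 at 1.71-fold, Dusp5 at 1.66-fold, Dusp4 at 1.58-fold and Etv4 at 1.51-fold. Spry2 and Dusp1 differed by 1.39-fold and 1.28-fold, and Spred1 and Spred2 by 1.19-fold and 1.20-fold.

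In 7 of the 10 genes, all but Dusp1, Spry2 and Spred2, each library numbered 3 or 4 exceeded each library numbered 1 or 2. This held for 23.5% of all genes, and the reverse for 9.09%. Among the lists read below, it held for 7 of 12 other Ras-ERK inhibitors, 4 of 9 other MAP kinase phosphatases, 6 of 8 fibroblast markers and 0 of 16 genes of the cascade core. It is therefore not particular to the feedback genes. Dusp6, for example, was between 13.5 and 15.1 TPM in replicates 1 and 2 and between 31.1 and 41.5 TPM in replicates 3 and 4. This split of the numbers was read from the data and is not a grouping of the study, so no test is given for it.

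**Figure D3:**
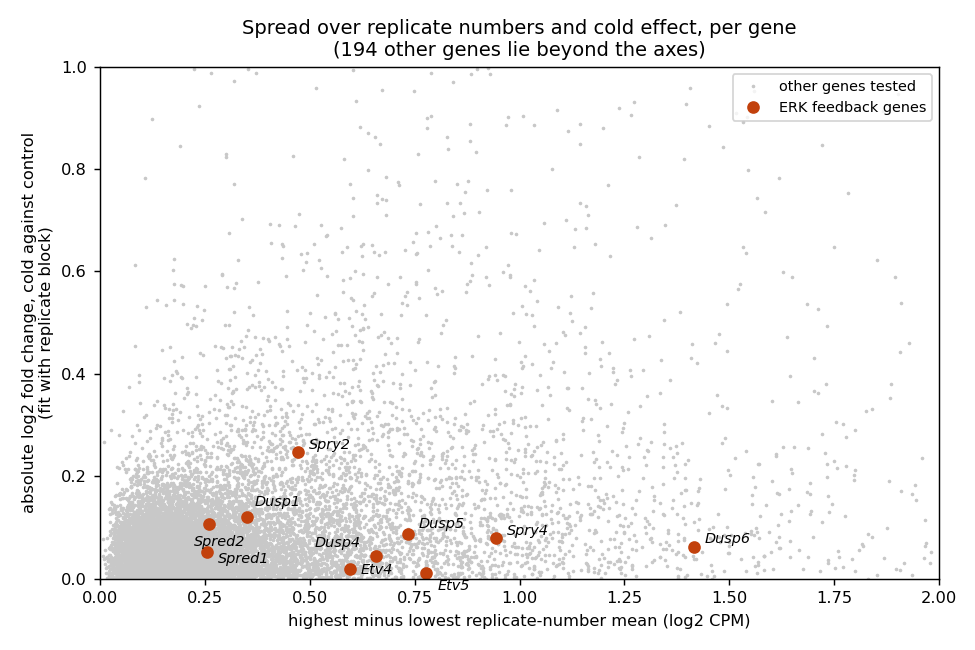
Each point is a gene tested, with the gap between its highest and lowest replicate-number mean in log2 CPM (horizontal axis) and its absolute log2 fold change of cold against control in the fit with the block (vertical axis). The ERK feedback genes (large points) lie low, at most 0.25, and spread to the right up to Dusp6 at 1.42, and 194 other genes lie beyond the axes.

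Some markers of cell state and cell type moved with the replicate numbers as well. The myogenic markers summed to between 2869 and 3693 TPM in replicates 1 and 2 and to between 2396 and 2841 TPM in replicates 3 and 4. Within that list, Myog, which marks entry into differentiation, was at 564 to 1016 TPM in replicates 1 and 2 and at 292 to 480 TPM in replicates 3 and 4. Myf5, a marker of proliferating myoblasts, went the other way, from 99.8 to 121 TPM and from 180 to 205 TPM. Of the 10 myogenic markers, 2 lay higher in each library numbered 3 or 4 and 3 lay lower, beside 23.5% and 9.09% of all genes. The fibroblast markers summed to between 1204 and 1295 TPM in replicates 1 and 2 and to between 1478 and 1747 TPM in replicates 3 and 4. Of the 8 tested, 6 lay higher in each library numbered 3 or 4 and 0 lower, while Col1a1 and Col1a2 overlapped. The smooth muscle and pericyte list ran the other way with overlap, at 1275 to 2047 TPM and 1054 to 1374 TPM. Of its 8 genes tested, 2 lay higher and 2 lower. The leukocyte and macrophage list summed to between 40.9 and 49.5 TPM and to between 75.3 and 105 TPM, most of it Cd68 and Cd14. In bulk cultures, fewer cells of a type and less RNA per cell cannot be told apart. The part of these markers in the levels of the feedback genes was not tested.

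By mean TPM over all 8 libraries, the members ranked Dusp1 (44.9), Dusp4 (36.0), Etv4 (32.0), Spry2 (28.7), Etv5 (25.7), Dusp6 (25.0), Dusp5 (24.6), Spred1 (21.9), Spred2 (17.1) and Spry4 (12.8). The order differed between libraries, and Dusp6 ranked 9 in replicates 1 and 2 of both groups and between 3 and 5 in replicates 3 and 4. Dusp1 ranked 1 in replicates 1 and 2 and 2 in replicates 3 and 4, where Dusp4 was above it. Many neighbours in this order did not differ beyond their spread. Dusp1 exceeded Dusp4 in 4 of 8 libraries, Etv4 exceeded Spry2 in 4, Spry2 exceeded Etv5 in 4, and Dusp6 exceeded Dusp5 in 3. Spred1 exceeded Spred2, and Spred2 exceeded Spry4, in 8 of 8.

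Likeness of pattern was measured as the root mean square difference between centred log2 CPM profiles over the 8 libraries, among 10486 genes with a mean of at least 1 TPM. It is a description, since libraries of one number deviated together. It is not scaled for spread, so the ranks also depend on how much each gene varied. The root mean square deviation of a member from its own mean ran from 0.12 for Spred1 to 0.63 for Dusp6. The nearest genes were Mtmr10 for Dusp4 (0.02), Cdh6 for Dusp6 (0.05), Crebrf for Dusp5 (0.07), Dlg2 for Spry4 (0.07), Madd for Etv4 (0.04), Ntn4 for Etv5 (0.05), Gtf2i for Spred1 (0.02), Btg3 for Spred2 (0.02), Pcyt1b for Spry2 (0.10) and Des for Dusp1 (0.07). Among the members themselves, Dusp4 ranked 19 in likeness to Etv5, Etv5 ranked 25 to Dusp4, 38 to Spry4 and 55 to Dusp5, and Spry4 ranked 58 to Dusp6. For the other 5 the closest member was further down, at rank 172 for Etv4, 788 for Spred2, 1072 for Spred1, 3974 for Spry2 and 7258 for Dusp1.

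The rest of the pathway was read from fixed lists. Without the block, 0 genes of any of these lists had an adjusted p under 0.05, beside 0.072% of all genes. The calls below come from the fit with the block, where 1.26% of all genes rose and 4.07% fell. Among 9 other MAP kinase phosphatases tested, Dusp10 rose (log2 fold change 0.33, SE 0.08, edgeR adjusted p = 0.0228) and Dusp3 fell (−0.23, SE 0.04, edgeR adjusted p = 0.0032), and 7 did not pass. Dusp3 was at 26.6 to 28.3 TPM in the controls and at 22.5 to 24.5 TPM in the cold libraries, with no overlap. DUSP10 acts on p38 and JNK rather than ERK. Dusp10 was higher in 4 of 4 pairs, for example 11.7 TPM in control replicate 4 and 15.9 TPM in cold replicate 4, yet it did not pass with DESeq2 and the block (adjusted p = 0.264), nor without replicate 2 (edgeR adjusted p = 0.123) or replicate 4 (0.107). Dusp7 was at 12.8 to 21.2 TPM with a log2 fold change of 0.08. The median of this list was −0.13.

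Of 12 other inhibitors of the path, 1 rose, beside 1.26% of all genes, and 11 did not pass, with a median of 0.02. The gene was Errfi1, which encodes a feedback inhibitor of the EGF receptor. It was at 79.5, 78.7, 135 and 122 TPM in the controls and at 98.7, 96.8, 146 and 134 TPM in the cold libraries, higher in 4 of 4 pairs. Its log2 fold change was 0.20 (SE 0.04, edgeR adjusted p = 0.00292). Without replicate 2 it was 0.17 (adjusted p = 0.0555). Pebp1, which encodes a Raf inhibitor, was the most abundant of the list at 297 to 319 TPM and had a log2 fold change of 0.01.

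Upstream of the feedback genes, 0 of 19 FGF receptors and receptor partners passed, and 0 of the 19 had an unadjusted p under 0.05, beside 18.2% of all genes, with a median of 0.06. The heparan sulfate proteoglycan genes Gpc1 and Sdc4, its most abundant members, had log2 fold changes of −0.02 and 0.04. Fgfr1, a receptor for the factor in the medium, was at 57.7 to 68.3 TPM in the controls with a log2 fold change of 0.07, and Fgfr4 was at 25.8 to 33.4 TPM with −0.06. Both receptors were picked with their values in view. Of 8 FGF genes tested in the ligand list, Fgf11 fell (log2 fold change −0.52, SE 0.13, edgeR adjusted p = 0.0236) and 7 did not pass, beside 4.07% of all genes lower, with a median of −0.21. Fgf11 was low, at 1.86 to 3.93 TPM, and its call was lost without replicate 1, 2 or 3 (edgeR adjusted p = 0.0553, 0.22 and 0.0723). With DESeq2 and the block, 0 of the 8 genes were called. FGF11 and FGF13 belong to the intracellular FGF homologous factors and are not secreted ligands, although their genes stand in this list. Fgf13 was the most abundant gene of the list at 41.9 to 56.6 TPM, with a log2 fold change of −0.09. Fgf21 had −0.30 and did not pass.

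In the core of the cascade, 0 of 16 genes passed, with 3 at an unadjusted p under 0.05, close to the 18.2% of all genes, and a median of −0.0067. Map2k2, which encodes MEK2, was at 123 to 164 TPM with a log2 fold change of −0.14, and Mapk3, which encodes ERK1, was at 105 to 126 TPM with 0.01. In replicates 1 and 2 alone, 4 of the 16 core genes were lower, where 6.85% of all genes were. In replicates 3 and 4 alone 0 were, where 0.381% were, and the difference between these fits was not tested. These counts are no independent support, since this split was chosen with earlier results of these data known. Of 16 ERK substrates and ETS factors, Rps6ka5, which encodes a kinase of histones and CREB, fell (log2 fold change −0.45, SE 0.08, edgeR adjusted p = 0.00113), and 15 did not pass, so that the share called was close to the 5.33% of all genes. It was at 8.30 to 9.80 TPM in the controls and at 6.00 to 7.12 TPM in the cold libraries, with no overlap. Elk3 and Mknk2, the most abundant, had log2 fold changes of 0.08 and −0.01, and the median of the list was 0.04. For the parallel p38 and JNK kinases, 0 of 9 passed, with a median of −0.0099, −0.09 for Map2k3 and 0.03 for Mapk14.

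Of 20 other ERK output genes tested, 6 rose, 0 fell and 14 did not pass, beside 1.26% of all genes higher and 4.07% lower, with a median of 0.14. The 3 with the largest changes were the immediate early genes Egr1, Fos and Ier2, which encode nuclear proteins. Egr1 was at 5.71, 5.39, 2.84 and 2.98 TPM in the controls and at 34.7, 67.0, 2.55 and 2.77 TPM in the cold libraries. Fos was at 2.13, 2.21, 1.08 and 1.09 TPM in the controls and at 9.22, 18.9, 1.56 and 1.73 TPM in the cold libraries. The highest values of both genes came from cold replicates 1 and 2. With the block, the log2 fold changes were 2.29 for Egr1 (SE 0.35), 2.11 for Fos (SE 0.25) and 0.58 for Ier2 (SE 0.09), with edgeR adjusted p-values of 0.000213, 1.1e-05 and 0.000369. Egr1 and Fos thereby passed both thresholds of the study, which itself reported no upregulated gene. In edgeR without the block, the adjusted p-values were 0.630, 0.576 and 0.445, and 0 of the 20 genes passed. Without replicate 2, the log2 fold changes with the block were 1.33, 1.40 and 0.46. In replicates 3 and 4 alone the log2 fold changes were −0.12, 0.61 and 0.35, and 0 of the 20 genes passed, beside 0.397% of all genes. In replicates 1 and 2 alone, 5 of the 20 were higher and 0 lower, beside 4.73% and 6.85% of all genes. The difference between these fits was not tested. With DESeq2 and the block, 2 of the 20 were higher, beside 0.312% of all genes, and Egr1 (adjusted p = 0.611) and Fos (0.110) did not pass.

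The other called genes changed less, and are named with their values in view. Ier3, Myc and Epha2 had log2 fold changes of 0.27, 0.21 and 0.20, and each lost its call when some replicate number was left out, with edgeR adjusted p-values of up to 0.458 for Ier3 and 0.253 for Epha2 (both without replicate 2) and 0.0553 for Myc (without replicate 3). Ccnd1, which encodes cyclin D1 and was the most abundant of the list, was at 229 to 417 TPM in the controls and at 260 to 434 TPM in the cold libraries, with a log2 fold change of 0.08. Jun was at 99.1 to 128 TPM with 0.12. Of the 20 genes, 6 lay higher in each library numbered 3 or 4 than in each numbered 1 or 2, beside 23.5% of all genes, and 3 lay lower, beside 9.09%. The 3 lower ones were Fos, Egr1 and Junb. Cold replicates 1 and 2, with the highest Egr1 and Fos of all libraries, held 14.4 and 15.1 TPM of Dusp6, beside 14.2 and 13.5 TPM in their controls.

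**Figure D4:**
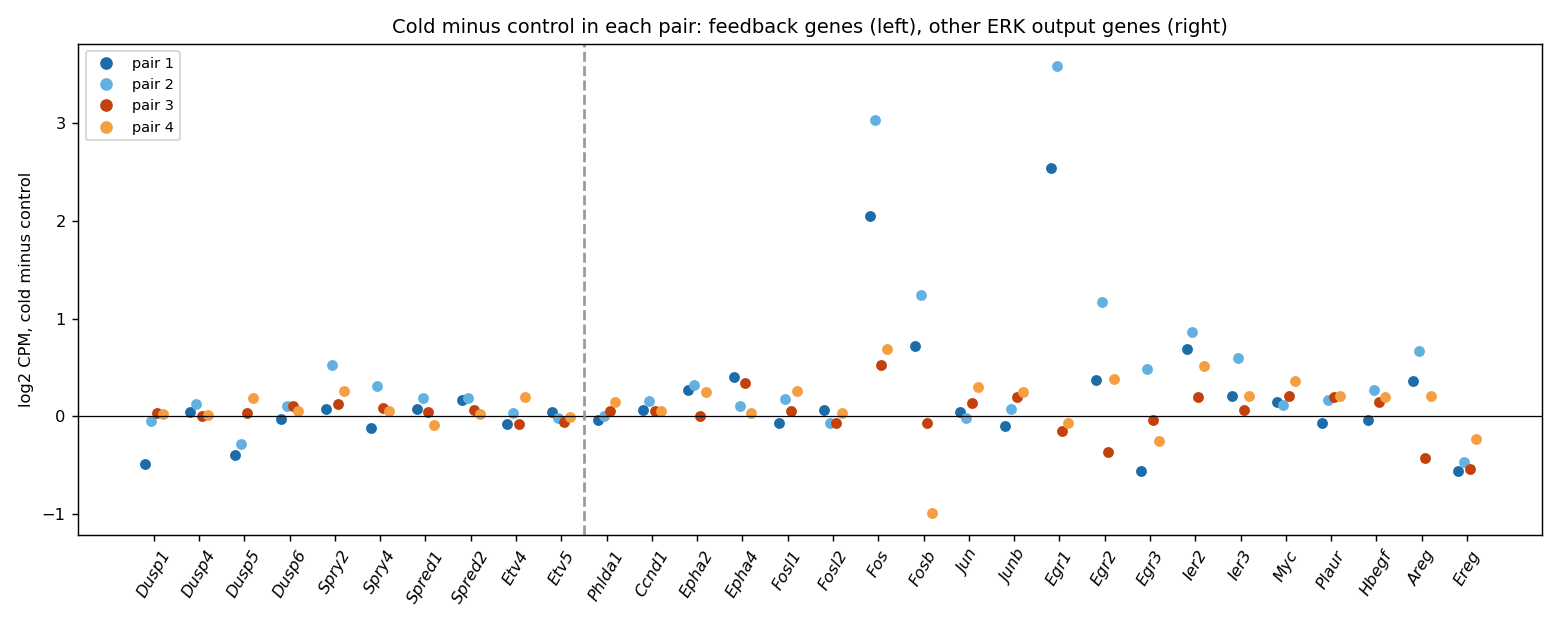
Difference in log2 CPM of cold minus control (vertical axis) in each of the 4 pairs of same-numbered libraries, for the 10 ERK feedback genes (left of the dashed line) and the 20 other ERK output genes (right). The members stay between −0.49 and 0.52, whereas Egr1 and Fos lie highest in pairs 1 and 2.

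The cold contrast also carried changes in markers in the fit with the block. Without it, 0 markers of any list had an adjusted p under 0.05, beside 0.072% of all genes (Myog, edgeR adjusted p = 0.824). Of the 10 myogenic markers 5 fell with the block, among them Myog (log2 fold change −0.71, adjusted p = 2.96e-09 with edgeR), and 0 rose, beside 4.07% and 1.26% of all genes. None of 8 fibroblast, 3 endothelial or 3 leukocyte and macrophage markers tested passed, with 1, 0 and 1 at an unadjusted p under 0.05, beside 18.2% of all genes. Beside the same 4.07%, in the Schwann cell list 1 of 3 fell (Erbb3), and in the smooth muscle and pericyte list 1 of 8 fell (Acta2, from 1125 to 1950 TPM in controls to 961 to 1258 TPM in the cold). The part of these shifts in the values of the feedback genes was not tested.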

How the data were processed

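Poly(A) RNA of the 8 libraries was sequenced as paired-end reads. The submitters' processing notes name HISAT and HISAT2 without versions, and the counting program and genome build are not given in the sources used here. The authors deposited 1 table with 3 units. Its expected counts, deposited by the authors, are estimated reads per gene with no normalization, and between 96.4% and 96.6% of them are whole. Its TPM values were computed by the authors and deposited beside them. Its normalized counts, a signal deposited by the authors as count times 1 factor per library, were not used. NCBI Gene identifiers of all 10 members matched their symbols in the RefSeq annotation BCM_Maur_2.0, which was used for names only.

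Expected counts were rounded and fitted in edgeR 4.0.16 (R 4.3.3) with filterByExpr, TMM factors and its quasi-likelihood test, and p-values were adjusted by Benjamini-Hochberg over all 12506 genes tested. Genes were called at an adjusted p under 0.05, with or without a log2 fold change of at least 1. Standard errors were the absolute log2 fold change over the square root of F. Pair differences were taken from TMM-scaled log2 CPM. TPM of single genes was compared by an exact permutation test over 70 arrangements. Figures were drawn with matplotlib 3.10.9.

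Both groups carry the replicate numbers 1 to 4. Deviations from group means correlated, across genes, at 0.60, 0.60, 0.63 and 0.64 between control and cold libraries of one number, and between −0.59 and 0.57 otherwise. The highest value between different numbers came near those of one number, so these correlations do not establish which libraries form a pair. Libraries were paired by the shared number alone, and the block, the pair differences and the counts of pairs rest on this choice. Between libraries of one group, the chi-square statistic per gene was at least 2.46, where about 1 is sampling noise, and none was counted as a copy.

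The members, gene lists and tests were chosen with earlier results of these data known. All members are named. From each pathway list the text names up to 3 called genes with the largest change and the 2 most abundant. Fgfr1, Fgfr4, Ier3, Myc, Epha2 and Junb fall outside this rule and were named after their values were seen. For each member it names the gene of nearest profile with a mean of at least 1 TPM and no LOC symbol. Alternatives were DESeq2 1.42.0, RLE factors, library totals, no filter, a mean of at least 10 counts per group, limma 3.58.1 on log2(TPM + 0.1) or log2(TPM + 1) after keeping genes that reached 0.1 TPM in 4 or more libraries, or keeping all, single libraries left out, replicates 1 and 2 or 3 and 4 alone, and the block with DESeq2, RLE factors, library totals, limma or a replicate number left out.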

Additional observations from a re-analysis of the deposited data

Results flagged for a closer look

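Among the 20 groups of 4 libraries formed by the 10 members, 1 held an isolated value by Dixon's criterion, and chance gives about 1. Cold replicate 3 had 20.3 TPM of Spred2, against 16.8 to 17.4 TPM in the rest of the group. Control replicate 3 also held the highest control value of Spred2, 19.0 TPM.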

How the results depend on the processing

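No member passed both thresholds in any of the 28 alternative fits, and the largest absolute log2 fold change of any member was 0.36, for Dusp6 without control replicate 3. In the unblocked fit 9 genes of the whole table had an adjusted p under 0.05. That number was 142 with DESeq2, 14 with library totals, 25 with no filter, 4 with the stricter filter, 667 with the replicate block, 3, 4 and 3 with limma (pseudocounts of 0.1, of 1, and of 0.1 with no filter), 1442 in replicates 1 and 2 alone and 50 in replicates 3 and 4 alone. It ran from 0 to 46 when single libraries were left out, 46 without control replicate 3. The number of members called, 0, became 1 with the replicate block and 2 in replicates 1 and 2 alone, and was 0 with every single library left out. The 1 member called with the block became 0 with DESeq2 and the block, with limma and the block, and without the block, and ran from 0 to 1 when a replicate number was left out with the block. It was 0 without replicate 2.

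The median log2 fold change of the members, 0.04 without the block, ran from −0.087 (without cold replicate 3) to 0.15 (without control replicate 3). Each such fit has a replicate number in 1 group only. With the block it ran from 0.0086 (without replicate 2) to 0.061 (without replicate 4). Signs of several members turned. Etv5, at −0.02, was at 0.0096, 0.0087 and 0.0096 with limma and 0.0096 with limma and the block, and at 0.010 in replicates 1 and 2 alone, where Etv4 was at −0.030. In replicates 3 and 4 alone, Dusp1 was at 0.027, Dusp5 at 0.11 and Spred1 at −0.026. When single libraries were left out, Dusp4 ran from −0.076 to 0.16, Dusp5 from −0.25 to 0.091, Dusp6 from −0.26 to 0.36, Spry4 from −0.10 to 0.24, Spred1 from −0.018 to 0.12, Etv4 from −0.077 to 0.15 and Etv5 from −0.14 to 0.13. With the block and a replicate number left out, Etv4 ran from −0.044 to 0.051 and Etv5 from −0.03 to 0.0035. The replicate block moved the median fold change of all genes by under 0.1 and turned the sign of no member. The call for the replicate number held in 10 of 10 members with RLE factors and with library totals.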
